A study of Drosophila melanogaster with 12 samples.

Results

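The genes described here encode the piRNA pathway of Drosophila melanogaster, the small RNA system that silences transposons in the gonads. The list was set by name and by no measured value, though with earlier results of these data known. It held 32 genes known to act in germline or follicle cell piRNA production or silencing. Each symbol was matched to its FlyBase identifier, and 31 of the 32 were found among the 14413 features counted. The gene vas was not analysed here. Of the 31, 3 encode PIWI proteins and 9 encode nuage and ping-pong factors. A further 11 were grouped under biogenesis, mitochondria and Yb bodies, 4 under transcription of piRNA clusters and 4 under nuclear silencing.

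A piRNA is a short RNA, cut from a long cluster transcript, that guides a PIWI protein to a matching transposon RNA. In germ cells Aubergine and Argonaute 3 cut transposon and cluster RNA in turn, in the perinuclear granules called nuage, and each cut makes the next guide (the ping-pong cycle). Piwi acts in the nucleus, where it directs transcriptional silencing, and it also works in the somatic follicle cells of the ovary, where Yb bodies take the place of nuage. Most of these proteins are known chiefly from ovaries and testes.

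The samples were whole flies of the laboratory strain iso31, which all groups share. All flies were placed in activity monitors soon after eclosion and kept on sucrose-agar food. The paper states that this minimal diet made even control flies relatively short-lived. RNA was taken in the first hours after lights-on in every group. CCM-exposed flies (chronic circadian misalignment) were kept in 14 h of light and 14 h of darkness, a 28 h cycle, and control flies in 12 h of light and 12 h of darkness, a 24 h cycle. Both schedules were sampled after 3 weeks and after 2 weeks, with 3 samples (A, B and C) in each of the 4 groups, and each sample was a pool of 10 males and 10 females. Since males, females and all tissues were mixed, ovary, testis and soma cannot be told apart within a value. For the same reason, fewer germ cells and less RNA per germ cell cannot be told apart. Nothing in the sources used here says whether the samples of a group came from separately reared cultures, so the p-values measure the spread between these pools.

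Libraries held 17842804 to 23687266 counts, and every member had at least 10 counts in every library, where SoYb was lowest. All 31 members passed the filter on low counts in every comparison. Markers of eye, muscle, neuron, gut, accessory gland and fat body were present in all groups, and some of them also differed between weeks, as given with the other marker lists. The week was the largest source of variation, with 55.4% of the variance on the principal component that separates week 3 from week 2. Control week 2 sample C stood apart for these genes: it had the highest level of 25 of the 31 members, while 24.4% of all features were highest there. CCM week 3 sample A had the lowest level of 13 members, against 8.32% of all features.

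Levels are given as CPM, counts scaled to the library's TMM-adjusted total, and between genes as CPM per kilobase of exon. In CCM-exposed flies at week 3 piwi stood at 2.44 ± 0.349 CPM per kilobase (SD, n = 3) and SoYb, the lowest, at 0.148 ± 0.0787 CPM per kilobase. In control flies at week 3 mino, which encodes a mitochondrial glycerol-3-phosphate acyltransferase needed for piRNA biogenesis, stood highest at 58.2 ± 6.63 CPM per kilobase, with papi at 14.7 ± 1.86, tapas at 11.6 ± 1.0, rhi at 6.23 ± 1.5 and piwi at 3.66 ± 0.380 CPM per kilobase. In control flies at week 2 mino was again highest at 50.0 ± 6.98 CPM per kilobase. Next came the Tudor-domain genes tapas at 17.9 ± 1.07 and papi at 16.0 ± 0.676 CPM per kilobase, then rhi at 14.4 ± 7.54 and piwi at 14.2 ± 5.85 CPM per kilobase. The genes papi, rhi and piwi, neighbours in this order, did not differ beyond the spread of rhi and piwi between samples. The lowest there were SoYb at 1.04 ± 0.938 and qin at 0.827 ± 0.465 CPM per kilobase.

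**Figure D1:**
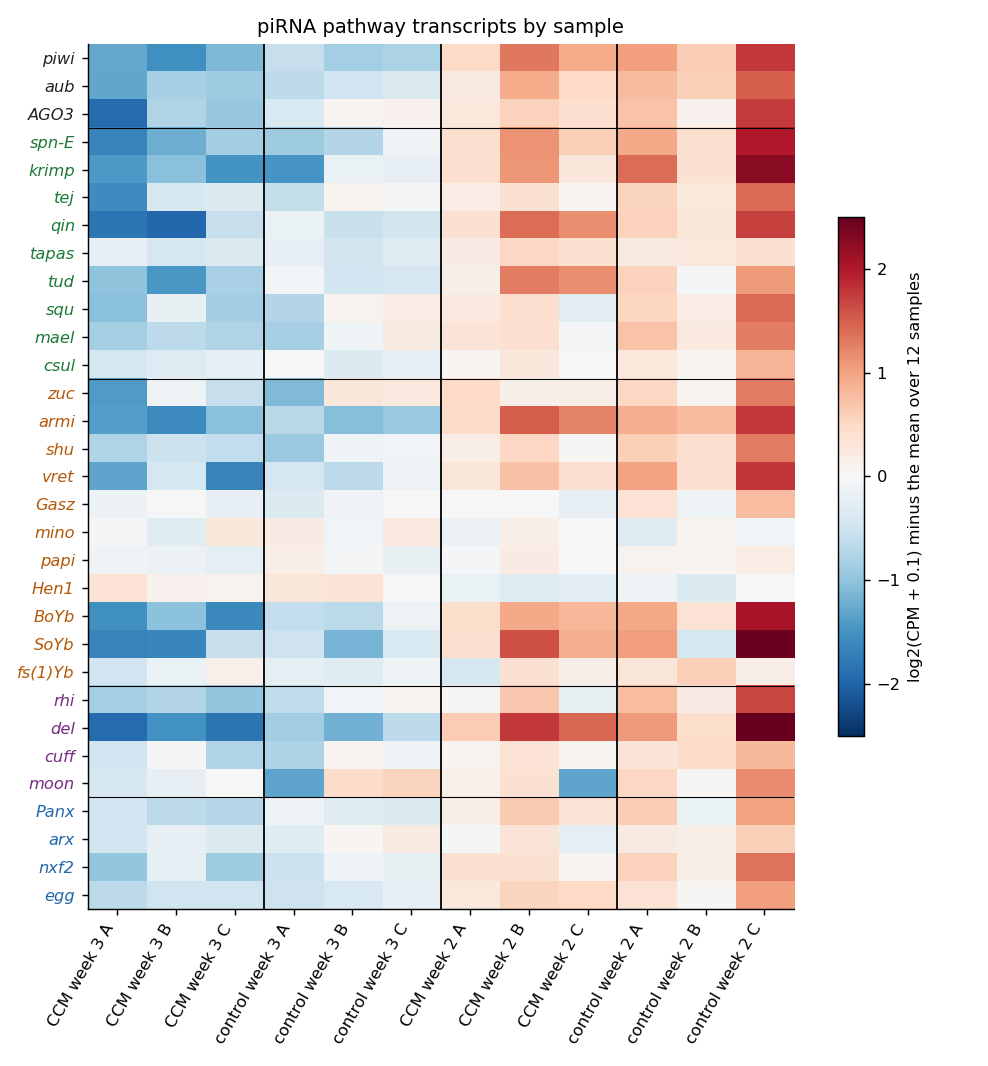
Level of the 31 members in the 12 samples, as log2(CPM + 0.1) minus the gene's mean over all samples, in colours that saturate at the ends of the scale; rows are genes grouped by role and columns are samples, with CCM before control and week 3 before week 2. Most rows are below their mean in the week 3 columns and above it in the week 2 columns, and control week 2 sample C is the highest column for 25 of 31 genes.

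The week 3 and week 2 flies of each schedule were compared first, since the study set normal aging beside the effect of CCM. In CCM-exposed flies 24 of the 31 members were lower at week 3 and 1, Hen1, was higher, at an adjusted p under 0.1 (edgeR's quasi-likelihood test, Benjamini-Hochberg over 12348 features). Of all features tested there 29.6% were called lower and 26.4% higher. In control flies 22 members were lower at week 3 and none was higher, where 17.3% and 14.0% of the 12200 features tested were called. Every week 3 sample was below every week 2 sample for 24 members in CCM-exposed flies and 22 in control flies, against 30.1% and 21.6% of features, and above for Hen1 under both, against 32.5% and 22.3%. The median log2 fold change (log2FC) over the members was -1.04 in CCM-exposed flies and -0.99 in control flies, and over all features it was -0.03 in each. Called in both comparisons were 21 members, 84.0% of the 25 of CCM-exposed flies and 95.5% of the 22 of control flies. The genes squ, zuc, papi and Hen1 were called in CCM-exposed flies alone, fs(1)Yb in control flies alone, and Gasz, mino, cuff, moon and arx in neither, and differences between the schedules were tested as an interaction. The comparisons of CCM-exposed and of control flies share no sample, and across the 31 members their log2FC had a Pearson r of 0.92.

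Leaving out any single sample left 21 to 25 members called in CCM-exposed flies. The count for control flies depended on single samples, and the cause was not tested. It was 7, 10 and 11 without control week 3 samples A, B and C, 10 without control week 2 sample A and 14 without control week 2 sample C. The number of all features called in control flies dropped as well, to 1317 without control week 3 sample A and to 1315 without control week 2 sample A, against 3821 with every sample. Among those lost without control week 3 sample A were AGO3, spn-E, krimp, BoYb, shu and egg, with adjusted p from 0.105 to 0.220 (edgeR). Without control week 2 sample C the log2FC in control flies was nearer to 0 for del (-1.75), krimp (-1.52), spn-E (-1.27), BoYb (-1.20), egg (-0.59) and AGO3 (-0.53). The member median stayed negative in every such fit, between -1.13 and -0.94 in CCM-exposed flies and between -1.27 and -0.67 in control flies.

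All 3 PIWI genes were lower at week 3 under both schedules. The gene piwi, on chromosome arm 2L at 10982205 to 10987420 (dm6 coordinates), encodes the nuclear PIWI protein. In CCM-exposed flies it had 7.63, 6.35 and 8.48 CPM at week 3, against 26.1, 46.8 and 35.8 CPM at week 2. In control flies it had 12.6, 10.4 and 10.8 CPM at week 3, against 37.9, 29.2 and 63.8 CPM at week 2. Every week 3 sample was below every week 2 sample. The log2FC was -2.34 ± 0.27 in CCM-exposed flies (SE, adjusted p = 0.00101, edgeR) and -1.96 ± 0.34 in control flies (adjusted p = 0.027, edgeR).

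The gene aub lies close by, at 10997819 to 11001476 on the same strand of 2L, and encodes Aubergine, which cuts transposon RNA in nuage. Its levels in CCM-exposed flies were 4.38, 6.02 and 5.80 CPM at week 3, against 12.8, 20.7 and 15.4 CPM at week 2. Control flies had 6.86, 7.65 and 8.40 CPM at week 3, against 18.8, 16.4 and 30.9 CPM at week 2. The log2FC were -1.65 ± 0.25 (adjusted p = 0.00161, edgeR) in CCM-exposed flies and -1.53 ± 0.29 (adjusted p = 0.027, edgeR) in control flies, and week 3 and week 2 samples did not overlap under either schedule. AGO3, at 23554593 to 23689640 on 3L, encodes the ping-pong partner of Aubergine. In CCM-exposed flies AGO3 had 4.04, 9.29 and 8.09 CPM at week 3, against 18.8, 23.4 and 20.9 CPM at week 2. The groups did not overlap, and the log2FC was -1.62 ± 0.38 (adjusted p = 0.00356, edgeR). Control flies had 12.0, 16.3 and 16.8 CPM at week 3, against 25.7, 16.9 and 52.8 CPM at week 2. Here the lowest week 2 value lay just above the highest week 3 value, and the log2FC of -1.08 ± 0.50 (adjusted p = 0.081, edgeR) was called with control week 2 sample B left out, and not with any other sample left out.

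**Figure D2:**
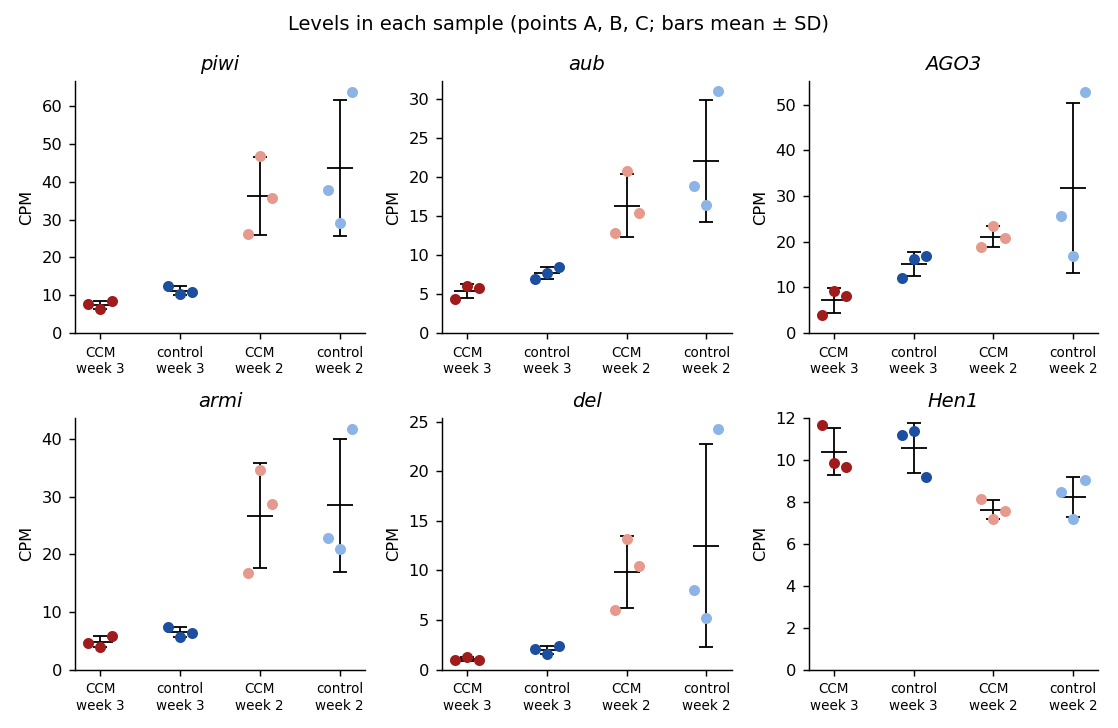
Level in CPM, on a linear axis from 0, of piwi, aub, AGO3, armi, del and Hen1 in each sample; points are samples A, B and C, bars are the mean ± SD (n = 3), and CCM stands left of control and week 3 left of week 2. For piwi the week 3 samples sit between 6.35 and 12.6 CPM and the week 2 samples between 26.1 and 63.8 CPM.

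Of the 9 nuage and ping-pong genes, all 9 were lower at week 3 in CCM-exposed flies and 8 in control flies. The gene krimp, whose Tudor-domain protein holds Aubergine and Argonaute 3 together, had 2.90, 3.88 and 2.79 CPM in CCM-exposed flies at week 3, against 10.8, 17.3 and 9.84 CPM at week 2. Control flies had 2.82, 7.17 and 6.93 CPM at week 3, against 21.3, 10.5 and 38.9 CPM at week 2. The log2FC were -2.04 ± 0.29 in CCM-exposed flies (adjusted p = 0.00152, edgeR) and -2.07 ± 0.70 in control flies (adjusted p = 0.036, edgeR), with no overlap between weeks. The gene spn-E encodes a nuage helicase. In CCM-exposed flies it had 3.99, 5.46 and 6.97 CPM at week 3, against 17, 28.3 and 19.4 CPM at week 2. In control flies it had 6.86, 7.75 and 12.1 CPM at week 3, against 24.9, 17 and 51.9 CPM at week 2. Again no sample overlapped between weeks, and the log2FC were -2.04 ± 0.32 in CCM-exposed flies (adjusted p = 0.00133, edgeR) and -1.82 ± 0.53 in control flies (adjusted p = 0.031, edgeR).

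The gene tud encodes Tudor, the founding protein of the Tudor-domain family, which binds methylated Aubergine. Its CCM-exposed samples had 32.9, 24.0 and 37.8 CPM at week 3, against 73.3, 161 and 147 CPM at week 2. Its control samples had 63.3, 47.1 and 49.2 CPM at week 3, against 98.2, 64.9 and 137 CPM at week 2. The log2FC was -2.08 ± 0.41 in CCM-exposed flies (adjusted p = 0.00185, edgeR) and -0.91 ± 0.34 in control flies (adjusted p = 0.048, edgeR), and the weeks did not overlap under either schedule. With offsets for gene length the log2FC of tud was -0.79 in CCM-exposed flies (adjusted p = 0.016, edgeR) and -0.17 in control flies, where it was not called (adjusted p = 0.354, edgeR). The called changes nearest to 0 in this role were those of csul, which encodes an arginine methyltransferase that modifies PIWI proteins, and of tapas. For csul the log2FC was -0.50 ± 0.11 in CCM-exposed flies and -0.61 ± 0.26 in control flies. In CCM-exposed flies tapas had 57.7, 49.4 and 51.4 CPM at week 3, against 76.8, 94.9 and 86.8 CPM at week 2, a log2FC of -0.76 ± 0.11 (adjusted p = 0.00198, edgeR). In control flies it was at 57.3, 48.2 and 52.7 CPM at week 3, against 77.7, 79.5 and 86.9 CPM at week 2, a log2FC of -0.63 ± 0.09 (adjusted p = 0.027, edgeR). With offsets for gene length the log2FC of tapas was -0.14 in CCM-exposed flies and -0.23 in control flies, and neither was called.

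The most negative log2FC of the role in CCM-exposed flies was that of qin, whose protein keeps ping-pong between Aubergine and Argonaute 3. It was -2.56 ± 0.57, with 0.939 ± 0.589 CPM at week 3 against 5.22 ± 1.79 CPM at week 2, and in control flies it was -1.43 ± 0.45. For tej the log2FC was -0.97 in CCM-exposed flies and -0.99 in control flies, and for mael it was -1.05 in CCM-exposed flies and -1.0 in control flies. For squ it was -0.87 in CCM-exposed flies (adjusted p = 0.046, edgeR) and -0.92 in control flies (adjusted p = 0.111, edgeR).

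Of the 11 biogenesis genes, 7 were lower and 1 higher at week 3 in CCM-exposed flies, and 6 were lower in control flies. Those lower under both schedules were armi, shu, vret, BoYb and SoYb. The gene armi, on 3L at 3461317 to 3466314, encodes a helicase that brings precursor RNA to the nuclease Zucchini at mitochondria. CCM-exposed flies had 4.63, 3.97 and 5.86 CPM at week 3, against 16.8, 34.7 and 28.6 CPM at week 2. Control flies had 7.47, 5.74 and 6.32 CPM at week 3, against 22.8, 21.0 and 41.8 CPM at week 2. The log2FC of armi was -2.54 ± 0.35 in CCM-exposed flies (adjusted p = 0.00113, edgeR) and -2.13 ± 0.33 in control flies (adjusted p = 0.027, edgeR), where it had the smallest p of any member. The gene vret encodes a Tudor-domain protein of Yb bodies and nuage. Its log2FC was -1.63 ± 0.40 in CCM-exposed flies, and in control flies, at 3.60, 3.03 and 4.41 CPM at week 3 against 9.79, 6.51 and 17 CPM at week 2, it was -1.60 ± 0.43 (adjusted p = 0.031, edgeR). The co-chaperone gene shu is needed to load PIWI proteins. Its log2FC was -0.96 ± 0.16 in CCM-exposed flies, and in control flies, at 4.54, 8.07 and 8.28 CPM at week 3 against 13.2, 11.7 and 21.5 CPM at week 2, it was -1.15 ± 0.39 (adjusted p = 0.045, edgeR).

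Calls differed among the 3 Yb-family genes. BoYb, a Yb-related gene of the germline, had 0.886, 1.31 and 0.837 CPM in CCM-exposed flies at week 3, against 3.76, 5.39 and 4.99 CPM at week 2. In control flies it had 1.77, 1.70 and 2.51 CPM at week 3, against 5.4, 3.58 and 11.8 CPM at week 2. Its log2FC were -2.27 ± 0.25 in CCM-exposed flies (adjusted p = 0.00124, edgeR) and -1.80 ± 0.53 in control flies (adjusted p = 0.037, edgeR). SoYb had log2FC of -2.48 ± 0.52 in CCM-exposed flies and -2.23 ± 0.89 in control flies, both called. For fs(1)Yb, the gene of the follicle cell Yb protein, the log2FC was -0.29 ± 0.30 in CCM-exposed flies (adjusted p = 0.42, edgeR) and -0.59 ± 0.14 in control flies (adjusted p = 0.0996, edgeR). Its CCM-exposed samples overlapped between weeks, at 3.20 ± 0.698 CPM at week 3 and 3.74 ± 1.02 CPM at week 2.

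The member called the other way without length offsets was Hen1, the methyltransferase gene whose enzyme finishes the 3′ ends of piRNAs and of Argonaute 2-bound small RNAs in somatic cells. It had 11.7, 9.85 and 9.65 CPM in CCM-exposed flies at week 3, against 8.13, 7.2 and 7.57 CPM at week 2, a log2FC of 0.39 ± 0.10 (adjusted p = 0.074, edgeR). It was no longer called without CCM week 2 sample B, CCM week 2 sample C or CCM week 3 sample A (adjusted p of 0.160, 0.157 and 0.158, edgeR), nor with length offsets or the replicate block. In control flies Hen1 was also higher in every week 3 sample than in any week 2 sample, at 11.2, 11.4 and 9.20 CPM against 8.47, 7.16 and 9.04 CPM, but the log2FC of 0.36 ± 0.14 did not pass (adjusted p = 0.199, edgeR). For the acyltransferase gene mino, the log2FC of -0.07 ± 0.19 in CCM-exposed flies and 0.22 ± 0.15 in control flies did not pass. With length offsets mino was called higher at week 3, with a log2FC of 0.40 in CCM-exposed flies (adjusted p = 0.077, edgeR) and 0.51 in control flies (adjusted p = 0.067, edgeR). Gasz, which encodes a mitochondrial scaffold for Zucchini, had 17.6 ± 1.18 CPM in CCM-exposed flies at week 3 and 18.3 ± 1.57 CPM at week 2, a log2FC of -0.11 ± 0.09, and in control flies its log2FC was -0.53 ± 0.28, and neither passed. The papi log2FC of -0.28 ± 0.08 in CCM-exposed flies was the called fall nearest to 0 of any member (adjusted p = 0.061, edgeR), and in control flies papi had a log2FC of -0.12 ± 0.11. The papi call was lost with the replicate block (adjusted p = 0.105, edgeR) and with length offsets (log2FC -0.16, adjusted p = 0.176, edgeR). The Zucchini gene, zuc, stood at -0.96 ± 0.41 in CCM-exposed flies (adjusted p = 0.050, edgeR) and at -0.82 ± 0.59 in control flies (adjusted p = 0.206, edgeR).

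Among the 4 genes for cluster transcription, del and rhi were lower at week 3 under both schedules. The gene del encodes Deadlock, which joins the cluster-binding protein Rhino to the transcription machinery, and del had the largest fall of any member in both comparisons. Among CCM-exposed flies the values were 0.935, 1.26 and 1.0 CPM at week 3, against 5.97, 13.2 and 10.4 CPM at week 2. In control flies they were 2.05, 1.59 and 2.39 CPM at week 3, against 8.05, 5.21 and 24.2 CPM at week 2. The log2FC of del were -3.26 ± 0.36 in CCM-exposed flies (adjusted p = 0.00105, edgeR) and -2.64 ± 0.68 in control flies (adjusted p = 0.028, edgeR), with no overlap between weeks. The Rhino gene itself, rhi, had 6.17 ± 0.502 CPM in CCM-exposed flies at week 3 against 13.1 ± 4.31 CPM at week 2, a log2FC of -1.14 ± 0.27. In control flies rhi had 9.79 ± 2.36 CPM at week 3 against 22.6 ± 11.8 CPM at week 2, a log2FC of -1.21 ± 0.48. The other genes of the Rhino machinery, cuff (log2FC -0.67 in CCM-exposed flies and -0.83 in control flies) and moon (-0.17 in CCM-exposed flies and -0.58 in control flies), were not called.

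Of the 4 nuclear silencing genes, Panx, nxf2 and egg were lower at week 3 under both schedules. The gene egg encodes the histone H3 lysine 9 methyltransferase Eggless, which also acts outside the pathway. CCM-exposed flies had 11.0, 12.3 and 12.3 CPM at week 3, against 20.7, 25.3 and 24.3 CPM at week 2. Control flies had 12.1, 13.3 and 15 CPM at week 3, against 22.2, 17.6 and 35.3 CPM at week 2. The weeks did not overlap, and the log2FC of egg was -1.04 ± 0.10 in CCM-exposed flies (adjusted p = 0.00121, edgeR) and -0.90 ± 0.31 in control flies (adjusted p = 0.050, edgeR), where it was not called without control week 2 sample A or any of the week 3 samples. Panx and nxf2 encode partners in the complex that links Piwi to heterochromatin. For Panx the log2FC was -1.08 ± 0.16 in CCM-exposed flies and -0.82 ± 0.35 in control flies, and for nxf2 it was -1.01 ± 0.25 in CCM-exposed flies and -1.06 ± 0.38 in control flies. For arx, the gene of the Piwi partner Asterix, the log2FC of -0.43 ± 0.18 in CCM-exposed flies and -0.33 ± 0.21 in control flies did not pass (adjusted p = 0.128 and 0.306, edgeR).

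**Figure D3:**
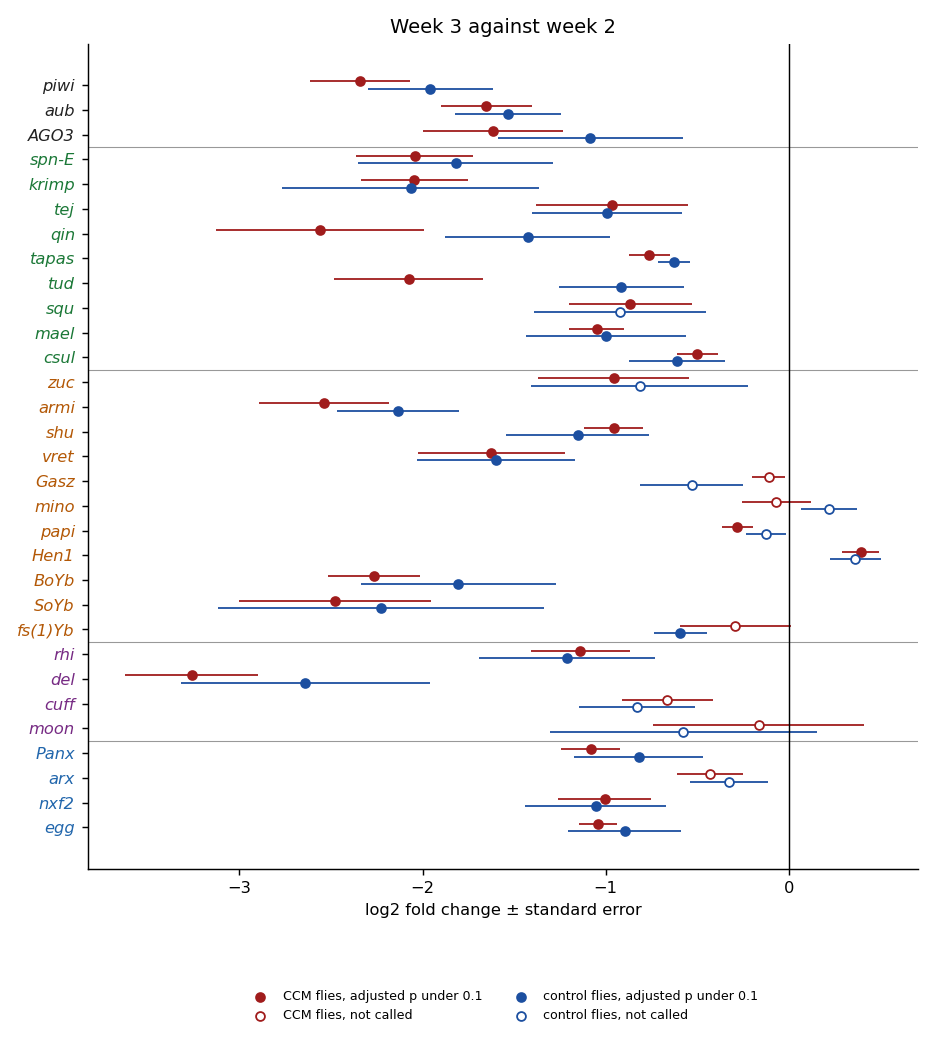
Log2FC of week 3 over week 2 for each member, with its standard error, in CCM-exposed flies and in control flies; genes are grouped by role, and filled points passed an adjusted p under 0.1. The points of del lie farthest to the left, at -3.26 in CCM-exposed flies and -2.64 in control flies, and Hen1 lies right of 0 under both schedules.

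The week differences of the members ran with gene length. Over the 31 members, which all come from the same libraries, log2FC and log2 exonic length had a Pearson r of -0.57 in CCM-exposed flies and -0.37 in control flies. With offsets for gene length the member median was -1.03 in CCM-exposed flies and -0.99 in control flies. Single genes moved more than the median. With the offsets tapas, papi and Hen1 were no longer called in CCM-exposed flies, nor tud, tapas and fs(1)Yb in control flies. Called with them, and not without, were cuff and arx as lower in CCM-exposed flies, cuff and squ as lower in control flies, and mino as higher under both schedules. The log2FC of qin was -1.60 in CCM-exposed flies and -0.78 in control flies with the offsets, and that of egg -0.58 in CCM-exposed flies and -0.56 in control flies, all still called.

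CCM-exposed flies were then compared with control flies at the same week, which asks whether the 28 h cycle altered these genes. After 2 weeks no member passed (edgeR's quasi-likelihood test), none had an unadjusted p under 0.05, and none was called by DESeq2. Of the 12356 features tested 0% were called and 5.67% had an unadjusted p under 0.05. DESeq2 called 0.049% of the 14273 features to which it gave an adjusted p. The log2FC was negative for 27 of 31 members, against 46.3% of all features, and its median was -0.42, against 0.02 over all features. Across the members it had a Pearson r of 0.55 with log2 exonic length, where that of week 3 had -0.29. With length offsets the member median at week 2 was -0.40. Without control week 2 sample C the member median was -0.06. For no member were the CCM-exposed and the control samples apart, against 13.4% of features. For piwi, from the values above, the log2FC was -0.26 ± 0.41 (adjusted p = 0.808, edgeR), and without that sample it was 0.09. For aub it was -0.43 ± 0.34 (adjusted p = 0.712, edgeR) and for AGO3 -0.58 ± 0.49 (adjusted p = 0.712, edgeR).

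The smallest p-values at week 2 were those of shu, mael and tej, each with an adjusted p of 0.712 (edgeR). The gene shu had 9.82, 12.6 and 8.88 CPM in CCM-exposed flies, against 13.2, 11.7 and 21.5 CPM in control flies, a log2FC of -0.56 ± 0.31. For mael, whose protein Maelstrom acts in nuage and in silencing, the values were 12.2, 12.8 and 9.32 CPM in CCM-exposed flies, against 15.9, 11.5 and 23.6 CPM in control flies, a log2FC of -0.57 ± 0.33. The nuage gene tej had 8.74, 9.99 and 7.92 CPM in CCM-exposed flies, against 11.2, 9.17 and 20.5 CPM in control flies, a log2FC of -0.61 ± 0.36. In each of these genes control sample C was the highest and control sample B lay within the range of the CCM-exposed samples.

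After 3 weeks again no member passed the test with edgeR, where 2 of 12208 features did, 0.0164%. At an unadjusted p under 0.05 there were 9 members, all with negative log2FC, while 8.54% of features were lower at that level. DESeq2 gave 25 of the 31 members an adjusted p, and none to qin, BoYb, SoYb, del, cuff and moon. Of those 25 it called 2 lower, AGO3 (adjusted p = 0.031) and tud (adjusted p = 0.019), and 2.46% of the features it gave an adjusted p were called lower. The log2FC was negative for 29 of 31 members, against 50.1% of all features, and the median was -0.50, against 0.00 over all features. It stayed between -0.55 and -0.38 with any single sample left out. For 9 members every CCM-exposed sample was below every control sample, against 10.9% of all features: piwi, aub, AGO3, qin, tud, BoYb, rhi, del and Panx. No member lay apart in the other direction.

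At week 3 samples with the same letter varied together, most weakly for A, at a correlation of 0.22. A fit that takes the letters as blocks is therefore given beside these results. This replicate block fit called 4 members lower, and 6.26% of features: AGO3 and tud with an adjusted p of 0.030 each, spn-E with 0.056 and piwi with 0.062 (edgeR). Here spn-E is named because of its value in that fit. With the block and length offsets together AGO3 (adjusted p = 0.032, edgeR) and tud (adjusted p = 0.068, edgeR) passed, with 2.25% of features lower. Neither set of calls was made in the fit without the block.

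AGO3 and tud had the smallest p-values of the members at week 3. AGO3 had 4.04, 9.29 and 8.09 CPM in CCM-exposed flies, against 12.0, 16.3 and 16.8 CPM in control flies, a log2FC of -1.08 ± 0.40 (adjusted p = 0.248, edgeR), the most negative of any member. The tud gene had 32.9, 24.0 and 37.8 CPM in CCM-exposed flies, against 63.3, 47.1 and 49.2 CPM in control flies, a log2FC of -0.76 ± 0.23 (adjusted p = 0.190, edgeR). With length offsets the log2FC of tud was -0.43. The piwi gene had 7.63, 6.35 and 8.48 CPM in CCM-exposed flies, against 12.6, 10.4 and 10.8 CPM in control flies, a log2FC of -0.60 ± 0.15 (adjusted p = 0.256, edgeR). For aub the log2FC was -0.50 ± 0.17 (adjusted p = 0.360, edgeR). In each of these genes the groups did not overlap, and none passed the adjustment over all features.

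The cluster transcription genes rhi and del were apart as well. For rhi the values were 6.25, 6.63 and 5.64 CPM in CCM-exposed flies, against 7.14, 10.6 and 11.7 CPM in control flies, a log2FC of -0.67 ± 0.23 (adjusted p = 0.283, edgeR). For del they were 0.935, 1.26 and 1.0 CPM in CCM-exposed flies, against 2.05, 1.59 and 2.39 CPM in control flies, a log2FC of -0.91 ± 0.21 (adjusted p = 0.297, edgeR). At the other end, tapas (log2FC 0.00 ± 0.10), Gasz (0.02 ± 0.12), Hen1 (-0.03 ± 0.13) and fs(1)Yb (0.06 ± 0.19) had log2FC close to 0. By role, the median log2FC at week 3 was -0.60 for the PIWI genes, -0.57 for nuage, -0.50 for cluster transcription, -0.36 for nuclear silencing and -0.32 for biogenesis.

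**Figure D4:**
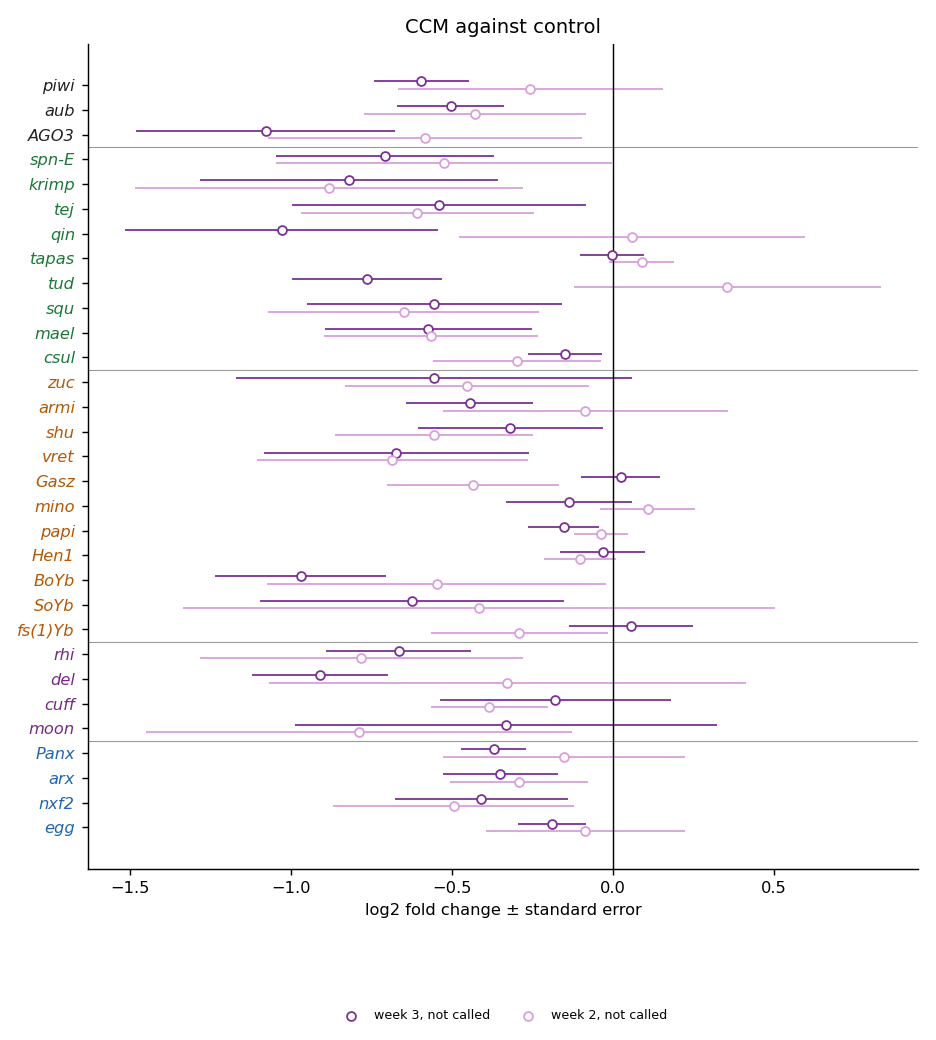
Log2FC of CCM-exposed over control flies for each member, with its standard error, at week 3 and at week 2; genes are grouped by role, and no point passed an adjusted p under 0.1. At week 3 29 of 31 points lie left of 0, with AGO3 farthest at -1.08, and at week 2 27 do.

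Whether the effect of CCM differed between weeks was tested as the interaction of schedule and week over all 12 samples. No member and none of the 12530 features tested passed (0%, edgeR). DESeq2 called no member and 0.00694% of the 14408 features to which it gave an adjusted p. At an unadjusted p under 0.05 there was 1 member, tud, against 4.55% of features. For tud the interaction was -1.10 ± 0.53 in log2FC (adjusted p = 0.913, edgeR), since its log2FC with CCM was -0.76 at week 3 and 0.35 at week 2. With length offsets the interaction of tud was -0.62, and its log2FC with CCM was -0.43 at week 3 and 0.24 at week 2. Without the offsets the interaction was -1.07 ± 0.72 for qin and 0.47 ± 0.30 for Gasz (adjusted p = 0.913 each, edgeR). The PIWI genes had interactions of -0.32 ± 0.44 for piwi, -0.06 ± 0.38 for aub and -0.48 ± 0.63 for AGO3. The log2FC with CCM was negative at both weeks for 25 members, 86.2% of the 29 at week 3 and 92.6% of the 27 at week 2. The Pearson r between the CCM log2FC of both weeks was 0.29 across the members.

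Other genes of the pathway were listed apart from the members. This list held 29 factors, most of them heterochromatin proteins, SUMO pathway enzymes, RNA export factors and chaperones that piRNA silencing shares with other processes. Of these, 28 were found and 27 tested. In CCM-exposed flies 18 were lower at week 3 and 3 higher, with a median log2FC of -0.48, and in control flies 14 were lower and none higher, with a median of -0.53. The SUMO gene smt3 was called higher in CCM-exposed flies at 0.32 (adjusted p = 0.03, edgeR), and the ovary transcription factor gene ovo had the largest fall of the list in control flies, at -1.54 (adjusted p = 0.04, edgeR). Between CCM-exposed and control flies none passed, and the medians were -0.20 at week 3 and -0.17 at week 2. Stellate RNA, which piRNAs silence in the testis, lay between 0 and 0.236 CPM in every sample, near the 0.168 CPM that 3 counts make in the smallest library, so no change was detectable at this depth. Transposon RNA and piRNAs themselves were not analysed here.

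Germline RNAs outside the pathway were also lower at week 3. Of 18 maternal RNAs of the ovary (osk, bcd, nos and others), 17 were tested. In CCM-exposed flies 15 were lower at week 3 and 1, grk, was higher, with a median log2FC of -1.40, and in control flies 11 were lower and grk higher, with a median of -1.43. Between CCM-exposed and control flies none passed, and the medians were -0.62 at week 3 and -0.78 at week 2. The yolk receptor gene yl had a log2FC for the weeks of -1.97 in CCM-exposed flies and -2.02 in control flies, and the oocyte RNA-binding protein gene orb had -2.28 in CCM-exposed flies and -1.88 in control flies. For grk, which encodes the ligand that patterns the egg, it was 0.50 in CCM-exposed flies and 0.60 in control flies. The summed level of the list was 435 to 541 CPM in CCM-exposed flies and 494 to 783 CPM in control flies at week 3, and 1013 to 1369 CPM in CCM-exposed flies and 1112 to 2514 CPM in control flies at week 2. The summed level of the members was 435 to 526 CPM in CCM-exposed flies and 530.1 to 597 CPM in control flies at week 3, and 658 to 927 CPM in CCM-exposed flies and 690 to 1120 CPM in control flies at week 2. A large part of the members' sum was mino, which was not called between weeks without length offsets. It averaged 209 CPM in CCM-exposed flies and 229 CPM in control flies at week 3, and 211 and 196 CPM at week 2. The part of the shift in maternal RNAs in the members' values was not tested.

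The members were also set against the maternal list. The median of the members' log2FC minus the list's own median was 0.35 in CCM-exposed flies and 0.44 in control flies for week 3 against week 2, with 19 and 22 of the 31 members above the maternal median. For CCM against control it was 0.12 at week 3 and 0.36 at week 2, with 21 and 28 members above. The week 3 value of CCM against control did not keep its sign: it was -0.03 without control week 3 sample B, -0.10 without control week 3 sample C, -0.06 with DESeq2, -0.02 with length offsets and the replicate block, and 0.003 with the block alone. For the weeks, the value of CCM-exposed flies was 0.02 without CCM week 3 sample A, and that of control flies was 0.06 without control week 3 sample A and 0.80 without control week 3 sample C. Control week 3 sample A was the odd one of its group: the members' mean log2 CPM minus that of the maternal list was -1.03 there, against -1.97 and -1.99 in the other control week 3 samples. No test was made of these differences.

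**Figure D5:**
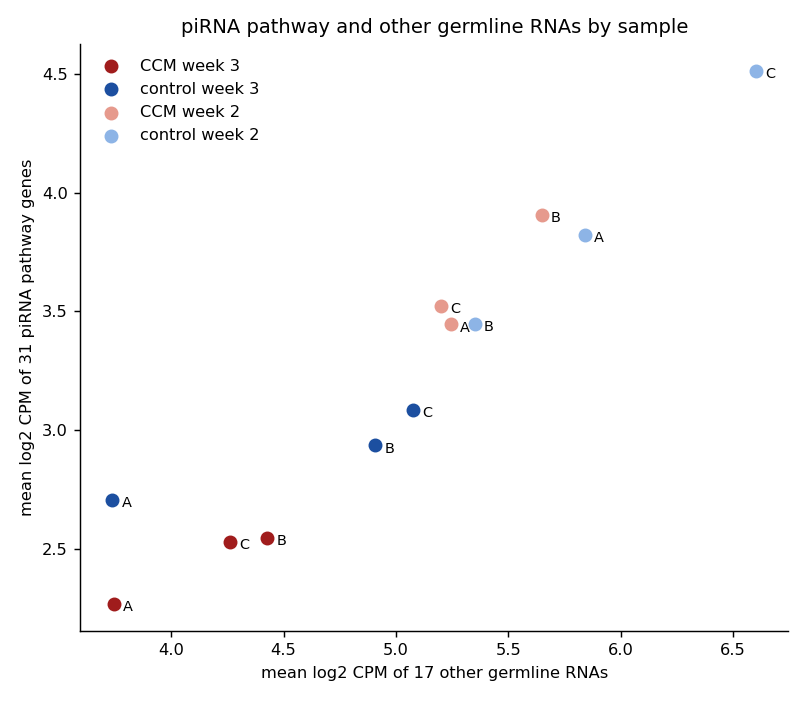
Mean log2 CPM of the 31 members against the mean log2 CPM of the maternal RNAs outside the pathway, with a point for each of the 12 samples, coloured by group and marked with its letter. The week 3 samples lie at the lower left and the week 2 samples at the upper right, and control week 3 sample A lies to the left of the other control week 3 samples.

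Markers of testis, follicle cells and somatic tissues were read as well, and their part in the members' values was not tested. Of 18 testis genes, 8 of the 16 tested were lower at week 3 in CCM-exposed flies and 6 of 16 in control flies, with median log2FC of -0.71 and -0.53. Their summed level was 210 to 415 CPM in CCM-exposed flies and 251 to 400 CPM in control flies at week 3, and 432 to 602 CPM in CCM-exposed flies and 408 to 476 CPM in control flies at week 2. With CCM the testis list had median log2FC of 0.14 at week 3 and 0.23 at week 2, where the members' medians were negative, and none of its genes passed. Its log2FC was negative for 6 of 16 genes tested at week 3 and 3 of 17 at week 2. The most negative at week 2 were twe (-0.99) and bam (-0.96), which were both called lower at week 3 than at week 2 under both schedules. Whether genes of this list were also expressed in ovaries was not tested. With offsets for gene length the testis medians were -0.02 at week 3 and 0.13 at week 2. Of 15 eggshell genes of follicle cells, most were near 0 in every group, and 3 or 4 were tested in each comparison of a pair of groups, where none passed. Of the vitelline membrane genes listed, Vm26Aa and Vm34Ca averaged under the level of 3 counts or close to it in all groups. Vm32E averaged 0.41 CPM in CCM-exposed flies and 0.33 CPM in control flies at week 3, and 0.09 and 0.05 CPM at week 2. The gene with the highest level of the list, Cp15, averaged 6.86 CPM in CCM-exposed flies and 6.67 CPM in control flies at week 3, and 6.98 and 11.9 CPM at week 2. Of 6 markers of somatic tissues, 3 were lower and 1 higher at week 3 in CCM-exposed flies, and 3 were lower in control flies, with median log2FC of -0.72 in CCM-exposed flies and -0.56 in control flies. The muscle myosin gene Mhc had log2FC of -1.21 in CCM-exposed flies (adjusted p = 0.00128, edgeR) and -0.97 in control flies (adjusted p = 0.027, edgeR). The yolk protein gene Yp1, made by fat body and follicle cells, had log2FC of -1.59 in CCM-exposed flies and -1.20 in control flies for week 3 against week 2 (adjusted p = 0.00651 and 0.027, edgeR). The neuronal gene nSyb was lower in CCM-exposed flies at -0.78 (adjusted p = 0.00356, edgeR), the rhodopsin gene ninaE was lower in control flies at -0.80 (adjusted p = 0.027, edgeR), and the accessory gland gene SP was higher in CCM-exposed flies at 0.37 (adjusted p = 0.056, edgeR). The summed level of the 6 markers was 4094 to 6156 CPM in CCM-exposed flies and 4704 to 5592 CPM in control flies at week 3, and 7541 to 11649 CPM in CCM-exposed flies and 8095 to 9237 CPM in control flies at week 2. The gut gene betaTry was not called, at 0.33 in CCM-exposed flies and 0.16 in control flies (adjusted p = 0.429 and 0.436, edgeR). With offsets for gene length the median log2FC of the 6 markers was -0.15 in CCM-exposed flies and -0.20 in control flies. In the fits without these offsets, lower levels at week 3 were therefore not confined to germline genes.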

How the data were processed

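Total RNA of 12 whole-fly pools was sequenced. Reads were filtered and mapped to dm6 by the authors with STAR, and MMquant, which merges genes that share reads, counted them over an annotation of protein-coding genes alone; versions are not given in the sources used here. The deposited values are unnormalized counts for each feature (13240 single genes and 1173 merged), in 1 table for each sample. Whether strand was used in counting is not given in the sources used here. Merged features that include piwi, tapas, squ, mael or vret held at most 15 counts and were left apart from the members.

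The counts were tested by edgeR 4.0.16 (R 4.3.3). For each comparison its 6 samples were fitted (filterByExpr, TMM, quasi-likelihood test, Benjamini-Hochberg over all features, threshold 0.1), and the interaction on all 12. Standard errors come from the replicates' log2 CPM with a prior count of 0.5. Lengths and positions are from the Ensembl BDGP6 annotation, matched by identifier. Alternatives were DESeq2 1.42.0 with shrinkage, RLE, no filter, all 12 samples in a single fit, the replicate block, length offsets (lowess, span 0.3) with and without it, single-gene features, an adjusted p under 0.05, and each sample left out. Tables and figures were made in Python 3.11.15, and the fits were tested on simulated data.

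The letters A, B and C of the labels were checked as pairs: deviations from group means of same-lettered samples correlated across features at 0.22, 0.56 and 0.52 at week 3, every pair over 0.1, and not so in the other comparisons, so the blocked values are printed beside the week 3 result. At week 3, 2 of the 3 CCM-exposed samples correlated best with the control sample of their own letter. Replicates of every group differed by more than sampling noise, and precision follows from that spread.

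The members and lists were chosen with earlier results of these data known. Full values are given for piwi, aub and AGO3, for up to 10 called members with the smallest p and any called the other way, for the 3 smallest p where none was called, and for at least 1 member of each role; other values are given as description.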

Additional observations from a re-analysis of the deposited data

How the results depend on the processing

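The members' median log2FC kept its negative sign under every alternative in the 4 comparisons of a pair of groups. For CCM against control at week 3, DESeq2 called 2 of the 25 members it gave an adjusted p. Members called numbered 4 with the replicate block and 2 with length offsets and the replicate block, against 0 in the fit without them. For week 3 against week 2 in CCM-exposed flies the replicate block gave 23 against 25, without papi and Hen1. In control flies 13 were called at an adjusted p under 0.05 against 22 at 0.1, 20 with the block (without csul, fs(1)Yb and Panx, and with squ), and 7 to 23 with each sample left out. In these week comparisons the letters did not pair the samples. The block called no member at week 2 or in the interaction. Among the genes with full values, reversed signs were those of piwi at week 2, whose values with a sample left out ran from -0.52 to 0.091 (the highest without control week 2 replicate C), and of aub in the interaction, whose values with a sample left out ran from -0.37 to 0.21: 0.21 without CCM week 2 replicate B, 0.08 and 0.16 without control week 2 replicates A and B, 0.07 without CCM week 3 replicate A and 0.01 without control week 3 replicate C. With a sample left out the members' median interaction, -0.06 over all samples, ran from -0.36 to 0.19, and their median relative to the maternal list for CCM against control at week 3, 0.12 over all samples, ran from -0.10 to 0.20. The cause was not tested. For the weeks, the members' median relative to the maternal list was 0.05 in CCM-exposed flies with length offsets and -0.04 in control flies with DESeq2, which shrinks log2FC. With length offsets Hen1 was 0.27 in CCM-exposed flies. Depth limits cuff, at 12 to 53 counts a library, and moon, at 12 to 102. Lowest counts were also small for SoYb (10 to 248 counts), qin (12 to 201), BoYb (15 to 286) and del (18 to 587), which had some of the largest falls.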
